A study of Pistacia chinensis with 8 samples.

Results

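The deposited miRNA table of Chinese pistache (Pistacia chinensis) inflorescence buds holds 86 predicted miRNAs, which the authors numbered with the prefix novel_. The 62 described here were left after 24 other predicted miRNAs had been set aside. Those 24 had been picked from earlier results on these same counts because they differed between stages, flower classes, strains or sexual systems. The choice of the 62 therefore used the comparisons below, and the counts of members in those comparisons are descriptions that support nothing about the group. The whole table has 471 rows, of which 385 carry miRBase-style names.

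The study sampled buds of 4 sex types at 2 stages of sex differentiation, labelled B and C, of which C is the later letter. Strain T2, whose plants carry more than 1 kind of flower, gave the monoecious bisexual and the monoecious female buds. Male buds came from strain X1 and female buds from strain C1, both dioecious, so strain cannot be told apart from sex in those buds, nor from sexual system across all buds. Each of the 8 combinations had 1 library, and the labels do not say whether a library came from 1 tree or a pool, so there was no replicate of any sex type at a stage. The tissue label was not checked against marker genes, because the table holds miRNA rows only. In lists of values below, the sex types are in the order bisexual, monoecious female, male and female.

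Plant miRNAs are cut by Dicer-like enzymes from hairpin precursors and guide Argonaute proteins to matching messenger RNAs, which are cleaved or kept from translation. Predicted miRNAs are small RNAs that match no catalogued family but map to sequence able to fold into such a hairpin. Many young, lineage-specific plant miRNAs are known to be weakly expressed. No sequence, precursor position or target of these rows was used here, so no function is assigned to any of them.

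Library totals over all 471 rows were 492859, 512244, 419169 and 473553 reads at stage C, and 160129, 821235, 859476 and 1159015 reads at stage B. Levels are given as CPM, which is reads per 1000000 after scaling by the trimmed mean of M-values (TMM), a correction for libraries whose most abundant rows take unequal shares. At this scaling 1 read was worth 1.26 to 1.85 CPM in 7 libraries and 6.13 CPM in the shallowest library, that of bisexual buds at stage B. Over the 53 members with at least 10 reads in all, the rank correlation of this library was 0.64 with male, 0.64 with female and 0.80 with monoecious female buds at stage B. The other pairs at stage B had 0.79 to 0.90 and pairs at stage C had 0.80 to 0.91. Results that rest on it are given with and without it.

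The 62 predicted miRNAs held few reads, and a handful of them held most of those. Together they took 81384 reads, or 1.66% of all reads in the table. At stage C their share was 2.25% in bisexual, 2.01% in monoecious female, 1.87% in male and 1.86% in female buds. At stage B it was 3.18% in bisexual buds (exact binomial 95% interval 3.09 to 3.27%, which covers counting error only), 1.08% in monoecious female, 1.63% in male and 1.32% in female buds. The stage C shares lay above those of 3 of the 4 stage B libraries, while bisexual buds at stage B had the highest share of all. These shares use library totals, and the stage order was not kept at TMM scaling. The members then summed to 17056.2, 16493.9, 14526.6 and 14902.9 CPM at stage C. At stage B they summed to 31194.2, 15254.4, 21074.5 and 19194.3 CPM, so only monoecious female buds were higher at stage C. Without novel_19, which took 36.4% of the member reads there, the share in bisexual buds at stage B was 2.02%, within the range of stage C.

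A single row, novel_3, held 40.8% of the members' reads, and novel_3 with novel_8 held 59.9%. The first 5 rows held 79.7% and the first 10 held 93.5%. Summed over the 8 libraries, 10 members had at least 1000 reads, 14 had at least 100 but fewer than 1000, 29 had at least 10 but fewer than 100, and 9 had fewer than 10. The median was 63 reads per member, against 977.5 for the 24 predicted miRNAs set aside and 38 for rows with miRBase-style names. The rows were divided by results on the same counts, so nothing is read from the gap to the 24.

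**Figure D1:**
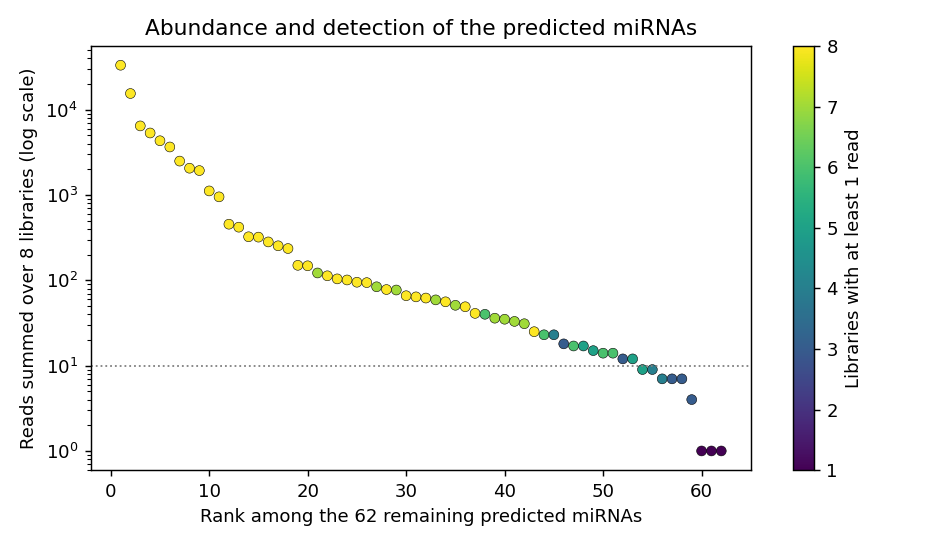
Reads summed over the 8 libraries (log axis) for each of the 62 predicted miRNAs against their rank, coloured by the number of libraries with at least 1 read; the dotted line marks 10 reads. The points fall from 33234 reads for novel_3 to 1 read for 3 members, and the 26 most abundant except novel_119 were read in all 8 libraries.

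The authors' numbering followed abundance loosely. The 22 members numbered below 50 had a median of 372 reads and the 40 numbered 50 or higher a median of 35.5 reads, with a rank correlation of -0.43 between number and reads across the 62 rows. The rows share the same 8 libraries, and how the numbers were assigned is not given in the sources used here.

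Of the 62 members, 33 had at least 1 read in every library, and 39 had one in each of the 7 libraries other than bisexual buds at stage B. A further 9 were read in 7 libraries, 5 in 6, 4 in 5, 3 in 4, 5 in 3, 0 in 2 and 3 in only 1. At stage C 52, 55, 54 and 52 members were read, and at stage B 42, 51, 51 and 50, with the fewest in the shallowest library. After 1 random thinning of every library to the total of the smallest, the numbers were 46, 47, 46 and 47 at stage C and 42, 39, 35 and 36 at stage B. All 4 stage C libraries were above all 4 stage B libraries both with all reads and after thinning. Thinning evened the library totals but not the TMM scaling. Totals times TMM factor were then still 195420 to 229707 at stage C and 99694 to 152883 at stage B. The part of this in the order was not tested, and the same counts over all rows are not given. The order is therefore not read as a stage difference of these members. A member with 0 reads in a library is compatible with up to 3 reads there, which is 18.4 CPM for bisexual buds at stage B and 3.77 to 5.55 CPM for the other libraries. In bulk buds, fewer cells that make a miRNA and less of it per cell cannot be told apart.

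**Figure D2:**
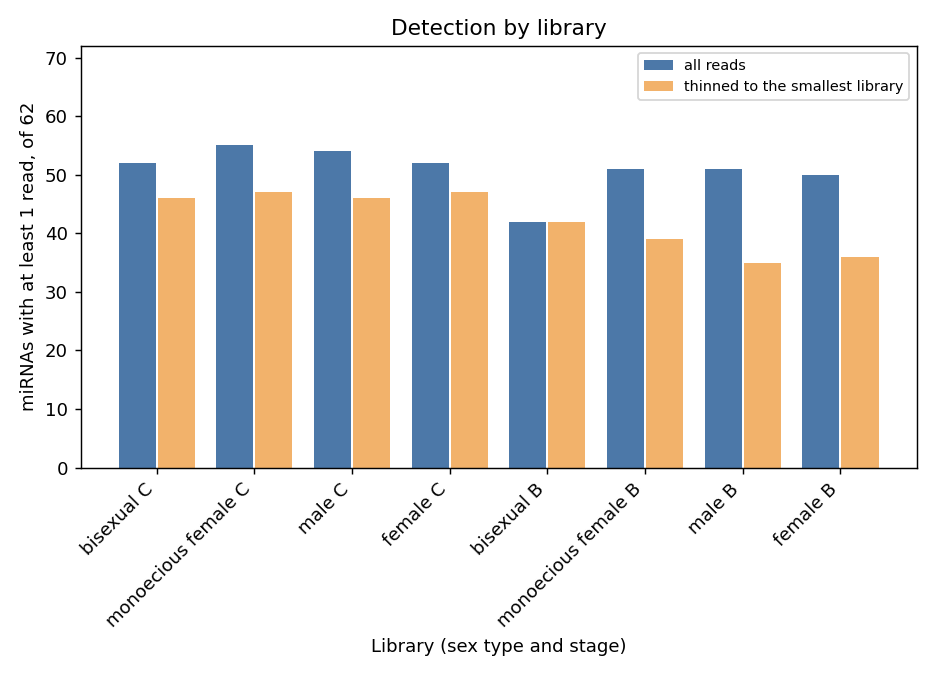
Number of the 62 predicted miRNAs with at least 1 read in each library, with all reads and after random thinning of every library to 160129 reads. With all reads bisexual buds at stage B had the fewest, at 42, and after thinning the stage C libraries stood at 46 to 47 and the stage B libraries at 35 to 42.

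**Figure D3:**
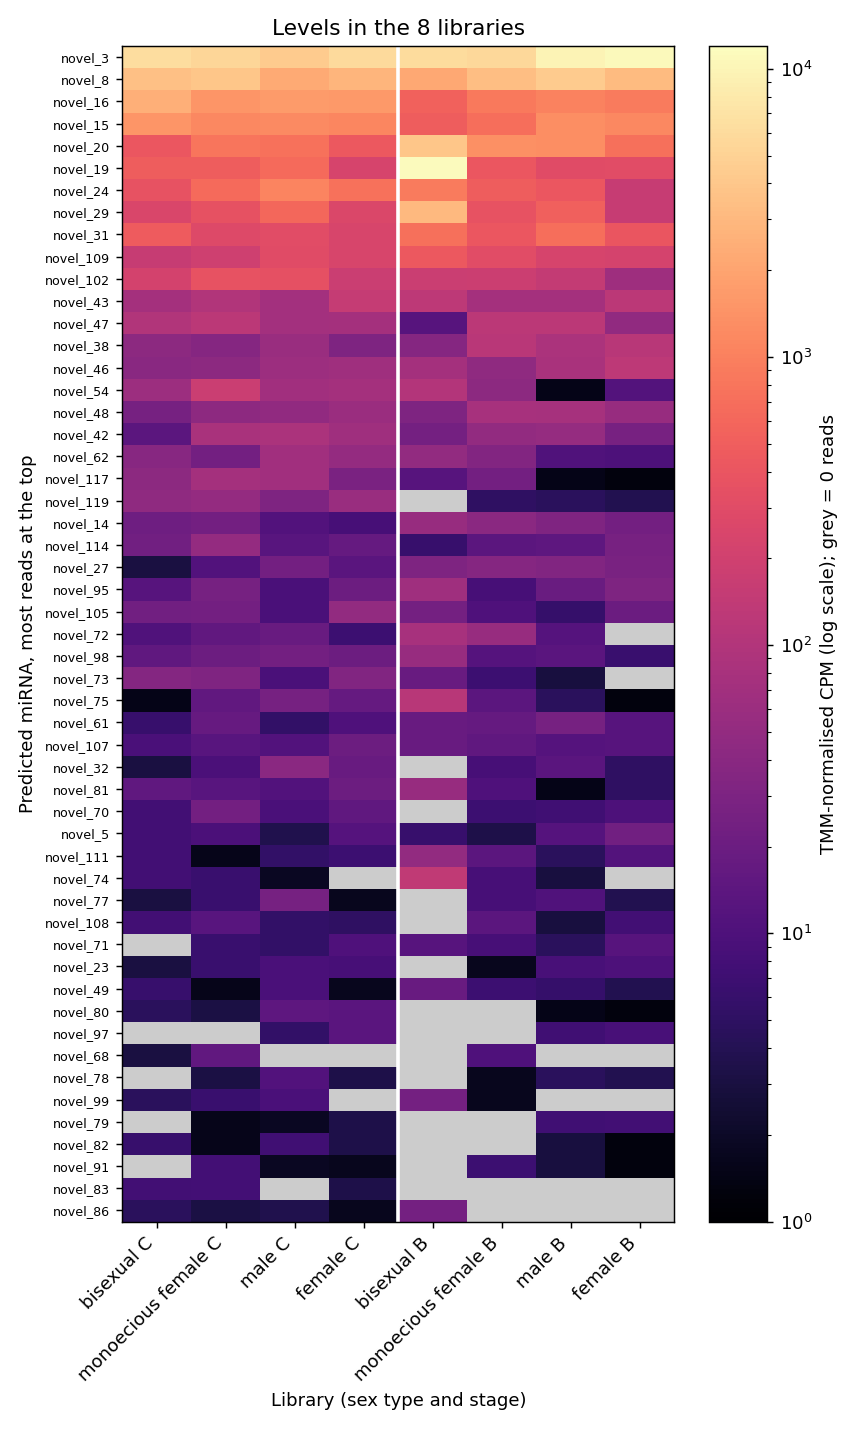
TMM-normalised CPM (log colour scale) of the 53 predicted miRNAs with at least 10 reads in all, by library, with the stage C libraries left of the stage B libraries; grey cells had 0 reads. The column of bisexual buds at stage B differs most from its neighbours: 16 members had their highest level in it and 14 had 0 reads in it.

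The steady members were few but included the most abundant. Members were called steady when they had at least 10 reads in each library and the highest level was at most 4 times the lowest, and 7 of the 13 members with that many reads met this (53.8%, against 49.2% of all 126 rows with at least 10 reads in each library). They were novel_8, novel_43, novel_3, novel_109, novel_31, novel_15 and novel_46, with ratios of 2.04 to 3.18. novel_16, at 4.65, was the nearest outside the limit. The limit does not exclude a stage difference. novel_31 and novel_46 were lower at stage C in 4 of 4 sex types. novel_31 was also called by stage with DESeq2, though not in the main fit described below. In the main fit the log2 change of stage C over stage B was -0.78 for novel_31 and -0.58 for novel_46. With library totals in place of TMM it was -0.09 and 0.12. In monoecious female buds novel_46 had 27 reads at both stages.

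novel_8 varied least. It had 3517, 3944, 2287 and 2834 CPM at stage C and 2151, 3432, 4390 and 3194 CPM at stage B. Its stages overlapped in full, with means of 3146 ± 732 CPM at stage C and 3292 ± 920 CPM at stage B (SD, n = 4 libraries of different sex types). Bisexual buds came second to monoecious female buds at stage C and were the lowest library at stage B.

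novel_3 was the most abundant member in 7 of the 8 libraries. Its level was 6407, 5531, 4301 and 5948 CPM at stage C and 6135, 5729, 9912 and 11078 CPM at stage B. The 2 dioecious libraries of stage B stood above the other 6, which lay within 4301 to 6407 CPM. The fitted log2 change of stage C over stage B was -0.52 (SE 0.32), and with library totals in place of TMM it was 0.17.

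novel_15 had 1504, 1187, 1229 and 1136 CPM at stage C and 490, 690, 1296 and 1171 CPM at stage B. Dioecious buds hardly differed by stage, while both monoecious bud types were higher at stage C. The remaining steady members were weaker. novel_31 stood at 240 to 465 CPM at stage C and 405 to 723 CPM at stage B, novel_109 at 161 to 296 and 227 to 429 CPM, novel_43 at 72.2 to 157 and 73.5 to 129 CPM, and novel_46 at 39.9 to 67.6 and 46.2 to 127 CPM. In novel_46 the 2 female libraries were the highest of their stages, at 67.6 CPM at stage C and 127 CPM at stage B. In novel_43 female buds were highest at stage C with 157 CPM and second at stage B with 124 CPM.

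The count of steady members depended on 1 library. Without bisexual buds at stage B, 14 members were steady, among them novel_16, novel_20, novel_29 and novel_19. Of the 13 members with at least 10 reads in all 8 libraries, 11 were among them. The others, novel_47, novel_38 and novel_48, met the read minimum only without that shallow library. Over all 8 libraries novel_38 and novel_48 already had ratios of 3.88 and 3.02. The ratio of novel_19 was 2.73 over these 7 libraries, against 48.3 over all 8. Over the same 13 members the median ratio was 2.83 with 7 libraries and 3.18 with 8. The 2 members that stayed above 4 without that library were novel_24 and novel_102, whose lowest level was in female buds at stage B in both cases. novel_24 had 368, 639, 1068 and 754 CPM at stage C and 919, 488, 413 and 160 CPM at stage B, so female buds at stage B were the lowest and male buds at stage C the highest. novel_24 was higher at stage C in 3 sex types and lower in bisexual buds.

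**Figure D4:**
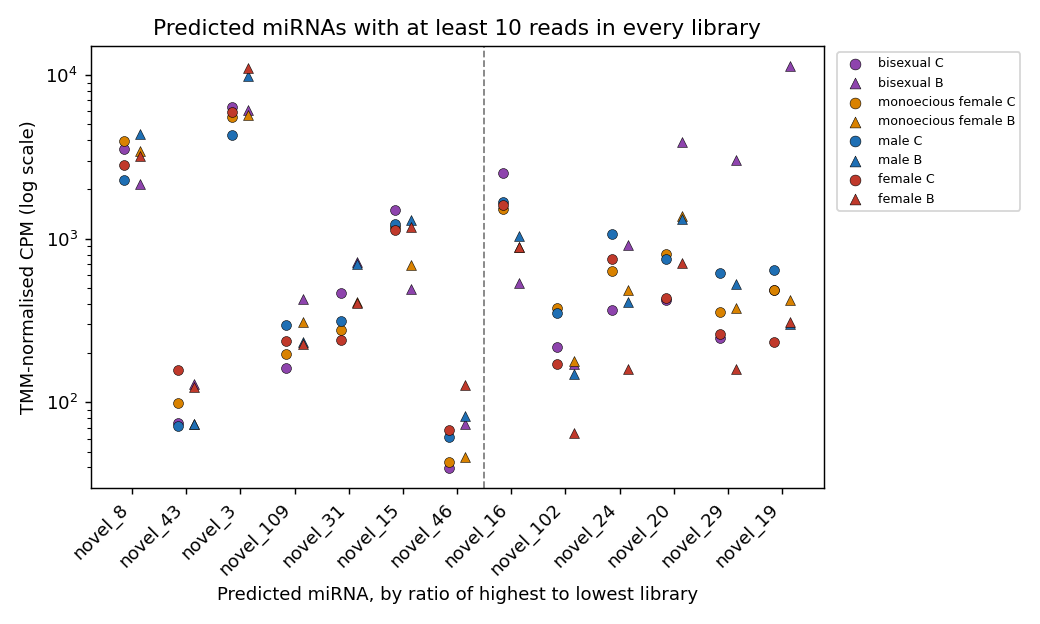
TMM-normalised CPM (log axis) in each library for the 13 predicted miRNAs with at least 10 reads in every library, ordered by the ratio of highest to lowest; circles are stage C, triangles stage B, and the dashed line marks the ratio of 4. Points of the 7 members to its left lie close together, and bisexual buds at stage B stand far above the rest for novel_19, novel_29 and novel_20.

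Setting stage C against stage B addresses which miRNAs change between the stages on average over the sex types, not which change differently between them. The fit had sex type as a term and took all rows that reached 10 reads in 2 or more libraries, and 34 of the 62 members passed that filter. A member can pass through high counts at 1 stage alone, so these 34 do not stand for all 62. edgeR's quasi-likelihood test called 2 of the 34 at a Benjamini-Hochberg adjusted p under 0.05, novel_119 and novel_117, both higher at stage C. Of all 248 rows tested it called 19.0%, with 12.5% higher and 6.45% lower. Since rows that differed by stage had been set aside, nothing is read from that count. Fitted log2 changes ran from -1.44 to 3.53, 22 of the 34 lay within 1 in either direction, and the median was 0.19, against 0.18 over all rows tested.

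In 4 members the 4 libraries of one stage all lay above the 4 of the other, 3 with stage C above and 1 with stage C below. Over all rows tested, 17.3% had stage C above in this way and 6.85% had it below. These 4 were novel_119, novel_117, novel_16 and novel_27.

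novel_119 had 30, 32, 17 and 34 reads at stage C and 0, 3, 3 and 3 reads at stage B. As levels these were 46.1, 51.3, 31.5 and 57.5 CPM at stage C and 0, 5.14, 4.501 and 3.77 CPM at stage B, so the lowest stage C level lay above the highest level read at stage B and above the 18.4 CPM that 0 reads allow in bisexual buds there. The fitted log2 change was 3.53 (SE 0.64), higher at stage C in 4 of 4 sex types. Its call was lost without either female or either monoecious female library, with log2 changes of 3.38 to 3.65. It was kept without either male or either bisexual library. Leaving out a library takes the stage change of its whole sex type out of the fit, since the library of the other stage then has no partner.

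novel_117 was higher at stage C in all 4 sex types too, but unevenly. It had 43.0, 75.3, 70.3 and 28.8 CPM at stage C and 12.3, 24.0, 1.50 and 1.26 CPM at stage B. Male and female buds had 1 read each at stage B, bisexual buds had 2 and monoecious female buds had 14 there, so both libraries of strain T2 were above both dioecious ones at that stage. The fitted log2 change was 3.02 (SE 0.79). Its call was lost without any 1 of the 6 libraries that are not bisexual, with log2 changes of 2.38 to 3.79.

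novel_16, the third most abundant member, had 2505, 1527, 1680 and 1617 CPM at stage C and 539, 886, 1038 and 896 CPM at stage B. Its mean was 1832 ± 453 CPM at stage C and 840 ± 212 CPM at stage B (SD, n = 4 libraries of different sex types), and the stages did not overlap. The fitted log2 change was 1.12 (SE 0.40), which edgeR did not call with TMM and all libraries. novel_16 was called with library totals, with DESeq2 in place of edgeR and without both bisexual libraries. It was not called without any 1 female, monoecious female or male library. Nor was it called without the bisexual library of stage C, where its log2 change was 0.76. Bisexual buds had both the highest level of stage C and the lowest of stage B.

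novel_27 was the member with stage C below. It had 2, 7, 13 and 8 reads at stage C and 5, 22, 22 and 22 reads at stage B, or 3.07 to 24.1 CPM against 27.7 to 37.7 CPM. The fitted log2 change was -1.44 (SE 0.60), also not called. With library totals in place of TMM its change was -0.74 and its stages overlapped.

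The scaling moved all of these changes together. With library totals alone the median change over all rows was higher by 0.70 on the log2 scale, and the median of the members was 0.89. Of the 16 members with a negative fitted change 6 were still negative with library totals, while all 18 with a positive one stayed positive. Library totals left 5 members with stage C above, namely novel_16, novel_15, novel_102, novel_117 and novel_119, and 0 with stage C below, against 27.0% and 2.02% of all rows tested. RLE factors (relative log expression, another scaling) left the same 3 members with stage C above as TMM and added novel_14 to novel_27 with stage C below.

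Direction was also followed in single sex types. Among the 34 members fitted, 6 were higher at stage C in 4 of 4 sex types, 5 were lower in 4 of 4 and 23 were mixed. Over all 248 rows tested 23.8% were higher and 14.5% lower in 4 of 4. Beside those already described, the higher ones were novel_102, novel_73 and novel_32, and the lower ones novel_20, novel_31, novel_46 and novel_14. novel_102 had 216, 378, 352 and 173 CPM at stage C and 172, 178, 149 and 65.4 CPM at stage B, and its lowest stage C value fell among the stage B values. novel_73 had 35.3, 32.0, 9.25 and 33.8 CPM at stage C and 18.4, 6.85, 3.00 and 0 CPM at stage B, which overlapped through male buds at stage C and bisexual buds at stage B. novel_32 was led by male buds at both stages, with 40.7 CPM at stage C and 13.5 CPM at stage B. In bisexual buds it had 2 reads at stage C and 0 at stage B, so its direction there is not known at this depth.

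novel_20 had 421, 807, 753 and 433 CPM at stage C and 3898, 1375, 1317 and 715 CPM at stage B. It was lower at stage C in every sex type, most in bisexual buds, and only female buds at stage B lay within the range of stage C. Its fitted log2 change was -1.33 (SE 0.53) with all libraries and -0.59 without both bisexual libraries. novel_14, with 8.46 to 24.0 CPM at stage C and 23.9 to 55.2 CPM at stage B, overlapped by less than 1 CPM.

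Without bisexual buds at stage B the stages separated in 9 members, 7 with stage C above and 2 with it below. Over all 246 rows that met the read minimum in those 7 libraries, 26.8% had stage C above and 20.7% had it below. The 5 added were novel_54, novel_73, novel_98 and novel_81, with stage C above, and novel_38, with stage C below. In novel_54, for example, stage C held 61.4, 175, 68.5 and 74.4 CPM, and stage B held 104 CPM in bisexual buds and 42.8, 1.50 and 11.3 CPM in the other sex types. novel_38 stood at 30.4 to 57.4 CPM at stage C, against 36.8 CPM in bisexual buds and at least 87.0 CPM in the other buds at stage B.

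**Figure D5:**
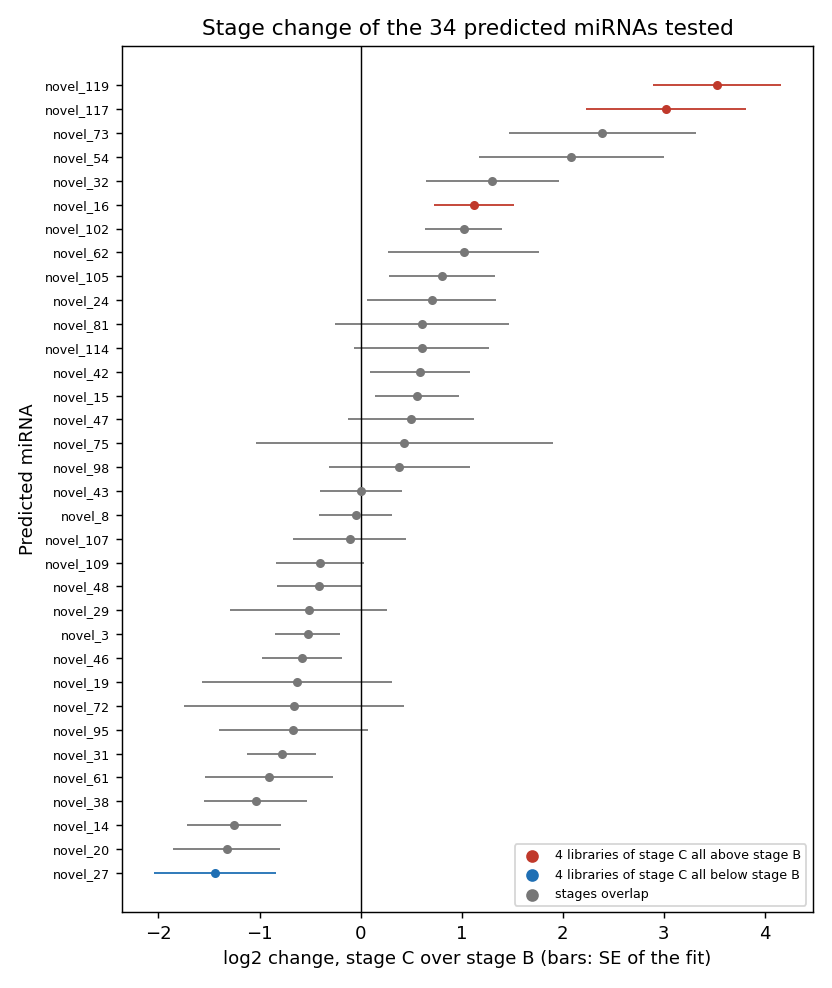
Fitted log2 change of stage C over stage B with its SE for the 34 predicted miRNAs tested, in red where all 4 stage C libraries lay above stage B, in blue where all lay below and in grey where stages overlapped. Changes run from 3.53 for novel_119 to -1.44 for novel_27, and 22 of the 34 lie between -1 and 1.

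In a few members most of the signal came from 1 library, and it was the same library each time. novel_19, novel_29 and novel_74 had at least 20 reads in bisexual buds at stage B and a level there at least 4 times that of every other library. No member met this in another library. How many of all rows did so is not given, so it is not read as a trait of the predicted miRNAs. novel_19 had 1854 reads there, or 11362 CPM, against 488, 485, 642 and 235 CPM at stage C and 423, 303 and 312 CPM in the other stage B buds. It was 17.7 times its next library, male buds at stage C (exact conditional binomial 95% interval 15.8 to 19.9, counting error only), and this library held 79.7% of its summed CPM. Outside it novel_19 lay within 235 to 642 CPM.

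novel_29 had 3034 CPM in bisexual buds at stage B, 4.94 times its next library (95% interval 4.29 to 5.69), and 161 to 614 CPM elsewhere. Among the 53 members with at least 10 reads, novel_74 was the only one with at least 80% of its summed CPM in 1 library, at 83.7%. It rested on 23 reads in bisexual buds at stage B, with 0 to 5 reads in each other library, and was 16.5 times the next (95% interval 6.12 to 55.4). novel_20 also had its highest level in that library, at 2.83 times the next. The same library had the fewest reads and the lowest rank correlations, and the part of either in these levels was not tested.

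Bisexual buds at stage B were the highest library for 16 of the 53 members with at least 10 reads, the most of any library, while monoecious female buds at stage C were highest for 9 and male buds at stage C for 8. They were also the library in which most of the 53 had 0 reads, at 14, against 1 to 7 in the others. The same counts over all rows are not given, so neither is read as a trait of the predicted miRNAs. At 6.13 CPM per read, a member there goes from 0 to a high rank on few reads. novel_86 and novel_99 led there on 4 reads each, and novel_111 on 8. The more abundant novel_75, with 19 reads or 116 CPM there, had 1.26 to 25.9 CPM elsewhere.

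Besides novel_74, at 88.2% in bisexual buds, novel_19 and novel_68 were the members with at least 10 reads that had at least 80% of their summed CPM in the 2 libraries of 1 sex type. novel_68 had 10 and 6 reads in monoecious female buds at stages C and B, 2 reads in bisexual buds at stage C and 0 in the other 5 libraries. All of its 18 reads came from strain T2. In the opposite pattern, novel_97 had 3 and 8 reads in male and female buds at stage C and 5 and 7 at stage B, and 0 in all 4 monoecious libraries. Both patterns lie near the limit of 3 reads that a count of 0 allows, and novel_97 was chosen after its values were seen. Over the 34 members fitted, 0 had all monoecious libraries above, and 0 below, all dioecious ones, against 1.61% of all rows in each direction.

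Some members were read at a single stage, all at low counts. novel_83 had 5, 5, 0 and 2 reads at stage C and 0 at stage B, and novel_89 had 1, 3, 4 and 1 reads at stage C and 0 at stage B. novel_76 had 4, 1, 0 and 2 reads at stage B and 0 at stage C, and novel_110 had 1, 2, 0 and 1. These 4 were named after their values were seen, apart from novel_110, and none had more than 5 reads in a library. novel_1, novel_93 and novel_96 had 1 read each in all, in bisexual, male and female buds at stage C. novel_101 had 7 reads over 4 libraries. The 9 members under 10 reads held 46 reads together, or 0.0565% of the members' reads.

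Between male and female buds, 5 members were at least 2 times as high and 1 was at most 0.5 times as high in male buds at both stages, of 40 members with at least 20 reads in the 4 libraries. Over all such rows the shares were 5.22% and 1.61%. With 1 library a group there is no test, and strains X1 and C1 differ with sex. novel_29 was 2.36 times as high in male as in female buds at stage C (95% interval 1.94 to 2.87), at 614 against 260 CPM, and 3.26 times at stage B (2.66 to 4.03), at 525 against 161 CPM. novel_102 was 2.04 times (1.59 to 2.62) at stage C and 2.27 times (1.61 to 3.24) at stage B.

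The other 4 rested on fewer reads. novel_105 had 5 reads in male and 29 in female buds at stage C and 4 and 16 at stage B, or 0.189 times (95% interval 0.0570 to 0.493) and 0.298 times (0.0726 to 0.925). novel_32 had 22 reads in male and 11 in female buds at stage C, 2.19 times (1.02 to 4.998), and 9 and 4 at stage B, where the interval of 0.750 to 11.9 included 1. novel_77 had 14 reads in male and 1 in female buds at stage C and 7 and 3 at stage B. novel_72 had 10 and 4 reads at stage C and 8 and 0 at stage B, and was highest in bisexual buds at stage B with 79.7 CPM. The stage B intervals of novel_32 and novel_77 and the stage C interval of novel_72 included 1.

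Bisexual and monoecious female buds shared strain T2, so this comparison is free of the strain difference. Of 37 members with at least 20 reads in the 4 libraries, 1 was at least 2 times as high and 3 were at most 0.5 times as high in bisexual buds at both stages, against 2.0% and 4.4% of all such rows. novel_42 had 9 reads in bisexual and 51 in monoecious female buds at stage C, 0.169 times (95% interval 0.0732 to 0.347), and 4 and 29 at stage B, 0.494 times (0.126 to 1.41). novel_114 had 15 and 32 reads at stage C and 1 and 8 at stage B. novel_70 had 5 and 15 reads at stage C and 0 and 4 at stage B. novel_111, the member with higher levels in bisexual buds, had 5 and 1 reads at stage C and 8 and 8 at stage B, where bisexual buds had the shallower library. Of these 4, novel_42 and novel_114 no longer passed 2-fold at both stages with library totals or RLE factors, and all stage B intervals but that of novel_111, and its stage C interval, included 1.

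In all, 23 members fell into 1 of these descriptions, with 7 steady, 4 separated by stage, 1 confined to 1 library, 2 confined to 1 sex type and 9 under 10 reads. The other 39 had 12 to 4327 reads and 12907 together. Of them, 22 were read in all 8 libraries, with a median ratio of highest to lowest level of 8.02. The lowest ratio among these 22 was 2.20, in novel_107, which had 9.21 to 20.3 CPM at stage C and 12.0 to 18.4 CPM at stage B but fewer than 10 reads in most libraries. The highest was 116, in novel_54, through its single read in male buds at stage B.

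Among these 39 some were set apart by low libraries and others by 1 high library. novel_47 had 101, 123, 72.2 and 74.4 CPM at stage C and 12.3, 123, 123 and 47.8 CPM at stage B, so bisexual buds at stage B, with 2 reads, were far below the other 7. novel_62 had 38.4, 24.0, 68.5 and 50.7 CPM at stage C and 49.0, 34.3, 10.5 and 10.1 CPM at stage B, where both dioecious bud types were the lowest of all libraries. novel_48 was more even, with 26.1, 44.9, 48.1 and 60.9 CPM at stage C and 30.6, 78.8, 76.5 and 56.6 CPM at stage B, and bisexual buds were the lowest of each stage. novel_95 had its highest level in bisexual buds at stage B, at 67.4 CPM from 11 reads, and 8.56 to 31.4 CPM elsewhere. Below the filter on reads, novel_80 had 3, 2, 8 and 8 reads at stage C and 0, 0, 1 and 1 reads at stage B. The 18.4 CPM that 0 reads allow in bisexual buds at stage B is above all of its stage C levels, so its stages cannot be ordered at this depth.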

How the data were processed

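Per the file headers, the authors deposited raw read counts per miRNA row and, beside them, TPM values. The deposited TPM equalled the count divided by its column total times 1000000 within 4.29e-05, with no length term. Only the counts were used. The submitters' processing notes name CASAVA 1.8 and Bowtie. Not given in the sources used here are the build, the release of miRBase and the tool that predicted the novel_ rows. Per the labels' protocols, libraries were made from total RNA with an NEB small RNA kit. All count columns matched a sample, leaving 0 unmatched.

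Counts were fitted over all rows with edgeR 4.0.16 in R 4.3.3 (TMM factors, quasi-likelihood F-test, sex type and stage as terms, 3 residual degrees of freedom), keeping the 248 rows that reached 10 reads in 2 or more libraries. With 1 library per group, the spread is the sex type by stage interaction and not one between trees. SE is the size of the log2 change over the square root of F. Exact conditional binomial intervals are given for ratios of 2 libraries, and they cover counting error only, since no molecular identifiers mark independent molecules. Among the members, 3 repeated the counts of another row, each with 1 read. The fit was tested on simulated data.

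The members, lists and tests were chosen with earlier results of these data known. Named were the 10 members with most reads, up to 8 steady ones, up to 8 per direction with separated stages, those called, those confined to 1 library or sex type, those past 2-fold at both stages, those at least 4 times above every other library, and up to 5 with fewest reads. Members outside this rule were named after their values were seen. These were novel_5, novel_14, novel_38, novel_47, novel_48, novel_54, novel_62, novel_73, novel_75, novel_76, novel_80, novel_81, novel_83, novel_86, novel_89, novel_95, novel_97, novel_98, novel_99 and novel_107. Alternatives were RLE factors, library totals, other read minimums and limits, DESeq2 1.42.0, identical rows kept once, stage as the only term, thinning, and leaving out libraries.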

Additional observations from a re-analysis of the deposited data

Results flagged for a closer look

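Over the 53 members with at least 10 reads, 105 groups of 4 libraries, 1 stage each, had values that differed. In 12 of them (11.4%) 1 library lay far from the other 3, with a gap to the nearest above Dixon's 95% limit, against 11.7% of such groups over all rows. The limit gives about 1 in 20 by chance only for normally distributed values. These values were CPM, many from few reads and at unequal depth, so that rate does not apply here. A group with reads in 1 library alone always passes, as for novel_68 and novel_86 at stage B. The 4 libraries are also different sex types. Of the 12, 8 had bisexual buds at stage B on top, and the same count over all rows is not given. novel_19 had 11362 CPM there and 303 to 423 CPM in the other 3 libraries. novel_29 had 3034 CPM there and 161 to 525 CPM in the others. novel_74 had 141 CPM there and 0 to 8.56 CPM in the others, and novel_75 had 116 CPM there and 1.26 to 13.7 CPM in the others. novel_98 and novel_81 had 55.2 CPM each there, from 9 reads, and at most 13.5 and 10.3 CPM in the others. novel_99 and novel_86 had 24.5 CPM each, from 4 reads, and at most 1.71 and 0 CPM in the others. novel_68 had 10.3 CPM in monoecious female buds at stage B, from 6 reads, and 0 in the others. At stage C, novel_16 had 2505 CPM in bisexual buds and 1527 to 1680 CPM in the others. novel_54 had 175 CPM in monoecious female buds and 61.4 to 74.4 CPM in the others, and novel_73 had 9.25 CPM in male buds and 32.0 to 35.3 CPM in the others.

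In 8 of the same 53 members the stage change ran one way in both monoecious and the other way in both dioecious bud types, as in 6.9% of the 319 rows with at least 10 reads. This difference was not tested. The log2 change of stage C over stage B, as the mean of 2 sex types, was 0.45 in monoecious and -0.56 in dioecious buds for novel_8 and 1.20 and -0.06 for novel_15. It was -1.84 and 0.46 for novel_29, whose monoecious mean joined -3.62 in bisexual and -0.06 in monoecious female buds. It was -1.04 and 0.21 for novel_109, and -0.43 and 2.52 for novel_62. It was 1.91 and -0.43 for novel_114 and 0.91 and -1.32 for novel_5. It was -2.33 in monoecious buds for novel_72 and 0.62 in male buds, since female buds had 0 reads at stage B. With library totals alone, 2 of these 8, novel_72 and novel_5, still had opposite directions.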

How the results depend on the processing

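The labels give no replicate numbers, and the fit pairs the 2 stages within each sex type through the sex type term. Without that term it called 52 rows and 2 members, against 47 and 2 with it. The count of 2 members called by stage was 4 with library totals, which added novel_16 and novel_102 and called 58 rows in all. It was 6 with DESeq2, which added novel_31 and novel_54 to these and called 68 rows in all. It was 9 without both bisexual libraries, where 108 rows were called in all. With at least 50 reads in 2 libraries it was 0, with 43 rows called in all, and 4 of 15 members had an unadjusted p under 0.05. novel_117 and novel_119 had at most 47 and 34 reads in a library, so neither could enter that setting. Leaving out 1 library at a time gave 0 to 9 members and 0 to 112 rows. It was 0 members without either female or either monoecious female library, each with 2 at an unadjusted p under 0.05, 1 without either male library, and 9 or 8 without the bisexual library of stage B or C. The members' median change of 0.19 was 0.89 with library totals. It was -0.50 with at least 50 reads in 2 libraries, where it covers the 15 members left and so a different set.

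Of 33 members read in every library, 21 were after thinning and 13 had at least 10 reads in each. The 7 steady members were 4 at a ratio of at most 3, and 14 without both bisexual libraries and also without that of stage B alone. Where libraries were left out, the minimum of 10 reads applied only to those kept. Separated stages, in 4 members, were found in 1 with at least 50 reads, since only novel_16 of the 4 reached that minimum. They were found in 14 without both bisexual libraries and 9 without the bisexual library of stage B alone. Over all rows without both bisexual libraries, 83 had stage C above and 52 had it below, against 43 and 17 with all libraries. Separation thus rose over the whole table, and nothing about the members is read from it. The 1 member confined to a library became 2 with RLE factors, thinning or a limit of 70%, and 0 without both bisexual libraries or at 90%. The 2 confined to a sex type became 1 with RLE factors or without both bisexual libraries, and 0 after thinning or at 90%. Past 2-fold, male against female had 6, with 1 at 3-fold and 3 with at least 50 reads. Bisexual against monoecious female had 4, with 2 under RLE factors, library totals, 3-fold and at least 50 reads. Sexual systems were separated in 0 members, in 1 with library totals (novel_14) and in 1 without both bisexual libraries (novel_46). The members' share of reads was 1.61% without bisexual buds at stage B. The shallowest library limits detection, since 3 reads there were 18.4 CPM. For detection, steadiness, stage separation and share, leaving out the bisexual stage B library alone was chosen after seeing the data.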
